A study of Mus musculus with 6 samples.

Results

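De novo lipogenesis builds fatty acids from carbohydrate carbon, and 10 of its genes were followed here in the gastrocnemius of mice without and with an excess of the transcription factor IRF4. The members were Scd1, Scd2, Fasn, Acaca, Acly, Elovl6, Me1, Thrsp, Srebf1 and Mlxipl, all 10 found by symbol among the 24054 genes of the count table. They were chosen by their place in fatty acid synthesis and desaturation and by the difference between genotypes in these same libraries, which was already known. The genotype differences of these 10 genes are therefore a description. Their calls by tests run over all genes are counted beside the share of all genes called and support nothing.

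In the pathway, ATP citrate lyase (Acly) makes cytosolic acetyl-CoA, acetyl-CoA carboxylase (Acaca) turns it into malonyl-CoA, and fatty acid synthase (Fasn) joins these units into palmitate with NADPH, part of which comes from malic enzyme (Me1). Elovl6 lengthens the product, stearoyl-CoA desaturases (Scd1, Scd2) add a double bond, and SREBP-1 (Srebf1) and ChREBP (Mlxipl) switch the genes on in response to insulin and glucose. Liver and fat are the main sites of this synthesis, whereas skeletal muscle mostly burns fatty acids and uses malonyl-CoA to restrain their entry into mitochondria.

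The 6 libraries came from male C57BL/6 mice, 3 with muscle-specific knockout of IRF4 (MI4KO) and 3 with muscle-specific overexpression (MI4OE). MI4KO mice were Irf4 flox/flox with Myl1-cre, and MI4OE mice carried Myl1-cre with a Rosa26-LSL-IRF4 allele, so both groups held the Cre knock-in, which is selective for skeletal muscle fibres and leaves other cells of the muscle with their own alleles. The labels record a high fat diet for every library whereas the study's text describes chow, and no age is given, so the feeding state behind lipogenic genes is uncertain. Neither flox nor wild-type gastrocnemius was analysed here, and a difference cannot be assigned to the loss or to the excess of IRF4. The titles carry a different number for each library and the study's methods list the muscles by kind of mouse, but the labels do not state that each came from a separate animal, so p-values measure the spread between these libraries, which may be technical.

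Library totals ran from 18828605 to 29239585 expected counts, at which 3 counts correspond to 0.101 to 0.148 CPM (counts scaled to a common library size with TMM factors). As a check of the labels, counts of Irf4 were 6, 0 and 2 for MI4KO against 2864, 10557 and 5911 for MI4OE, and Gt(ROSA)26Sor, at the locus of the transgene, measured 0.504 to 0.778 CPM against 69.9 to 87.3 CPM. The 10 skeletal muscle markers summed to between 169700 and 287600 CPM, but the libraries differed in fibre-type genes. Myh7, the slow myosin, measured 1603 CPM in MI4OE replicate 1 and 162 CPM in MI4OE replicate 3 against 0.205 to 20.5 CPM in the other 4 libraries (edgeR adjusted p 0.626), and Myh2 and Mb were also highest in MI4OE replicate 1, at 7421 and 9763 CPM. MI4KO replicate 2 stood apart in brown adipocyte genes, with 71.0 CPM of Ucp1, the uncoupling protein of brown fat, against 0 to 0.148 CPM elsewhere, and 24.8 CPM of Cidea against 0.210 to 7.53 CPM. All 10 lipogenesis genes passed the filter on low counts, which left 12660 genes tested. MI4KO replicate 3 stood apart in hepatocyte markers, whose 7 genes summed to 64.3 CPM there and to between 2.74 and 8.52 CPM in the other 5 libraries. MI4KO replicate 3 also held the highest summed level of adipocyte markers, described beside the results.

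Promoter sequence for 8 of the 10 genes was taken from the RefSeq table of GRCm38.p6. Scd1 and Scd2 had no entry. The count files name no genome build, so the positions below belong to the sequence table alone. The windows cover 250 bases upstream of each annotated start and were searched on both strands for TCACNCCAC (SRE, the SREBP element), CACGTG (E-box, read by factors such as USF and ChREBP), CCAAT (bound by NF-Y), GGGCGG (GC box, bound by Sp1) and GAAANNGAA (core of the ISRE, the element of IRF proteins). Fasn and Thrsp are shown because their levels in CPM did not overlap between genotypes, and both Mlxipl windows because that gene had the smallest difference. Capitals mark the motifs found.

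Fasn, chr11:120824548-120824797, minus strand: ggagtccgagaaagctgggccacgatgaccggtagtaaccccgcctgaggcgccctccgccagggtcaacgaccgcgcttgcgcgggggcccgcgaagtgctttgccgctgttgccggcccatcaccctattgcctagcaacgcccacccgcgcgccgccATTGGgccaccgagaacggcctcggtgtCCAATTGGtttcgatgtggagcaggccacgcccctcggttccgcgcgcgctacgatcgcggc

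Thrsp, chr7:97417551-97417800, minus strand: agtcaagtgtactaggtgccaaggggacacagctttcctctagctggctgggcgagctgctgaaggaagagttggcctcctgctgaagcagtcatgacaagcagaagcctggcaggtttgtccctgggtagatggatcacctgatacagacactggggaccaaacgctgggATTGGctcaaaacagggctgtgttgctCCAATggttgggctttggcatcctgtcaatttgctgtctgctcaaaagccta

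Mlxipl, upstream start, chr5:135089640-135089889, plus strand: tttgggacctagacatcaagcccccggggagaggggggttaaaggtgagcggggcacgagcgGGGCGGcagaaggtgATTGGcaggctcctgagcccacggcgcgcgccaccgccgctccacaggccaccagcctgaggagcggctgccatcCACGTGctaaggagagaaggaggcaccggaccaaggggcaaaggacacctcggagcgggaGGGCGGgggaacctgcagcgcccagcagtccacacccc

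Mlxipl, downstream start, chr5:135106641-135106890, plus strand: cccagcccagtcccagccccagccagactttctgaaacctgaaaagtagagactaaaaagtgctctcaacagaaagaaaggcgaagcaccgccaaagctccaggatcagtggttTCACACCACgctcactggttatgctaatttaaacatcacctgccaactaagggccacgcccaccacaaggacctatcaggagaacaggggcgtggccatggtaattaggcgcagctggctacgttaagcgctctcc

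Fasn had 3 CCAAT boxes, at 90, 62 and 59 bases upstream, the last 2 overlapping on opposite strands. Thrsp had 2, at 79 and 52 bases upstream. CCAAT boxes were in windows of 5 of the 8 genes, also Me1, Srebf1 and Mlxipl, which overlapped between genotypes. GC boxes were in windows of 4, Acly, Me1, Mlxipl and Srebf1. The SRE letters occurred in 1 of the 12 windows, that of the downstream Mlxipl start, and the E-box in 1, that of the upstream Mlxipl start. Of 32851 promoter windows in the table, 33.8% held a CCAAT box, 32.7% a GC box, 7.13% the ISRE core, 6.02% the E-box and 1.05% the SRE. The ISRE core was in 0 of the 12 windows, which says only that these letters are not within 250 bases of the starts.

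Levels between genes were compared as TPM, an abundance adjusted for transcript length. In MI4OE libraries Me1 stood first at 164 ± 77.0 TPM (SD, n = 3), then Srebf1 at 42.6 ± 14.8 TPM (SD, n = 3) and Scd1 at 22.3 ± 19.6 TPM (SD, n = 3). Scd1 stood first in MI4KO libraries at 328 ± 258 TPM (SD, n = 3), ahead of Me1 at 198 ± 46.6 TPM (SD, n = 3), although the ranges of this pair overlapped. Fasn had 14.4 ± 10.3 TPM in MI4KO and 2.52 ± 1.41 TPM in MI4OE (SD, n = 3 each). Elovl6 was last in both groups, at 0.663 ± 0.546 TPM in MI4KO and 0.173 ± 0.0153 TPM in MI4OE (SD, n = 3 each). In MI4KO 7 of the 9 neighbouring pairs in the order overlapped in range, so most of the order there is not resolved. In MI4OE the ranges of Me1 and Srebf1, Mlxipl and Thrsp, Scd2 and Acly, and Acaca and Elovl6 did not overlap, and those of the other 5 neighbouring pairs did.

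**Figure D1:**
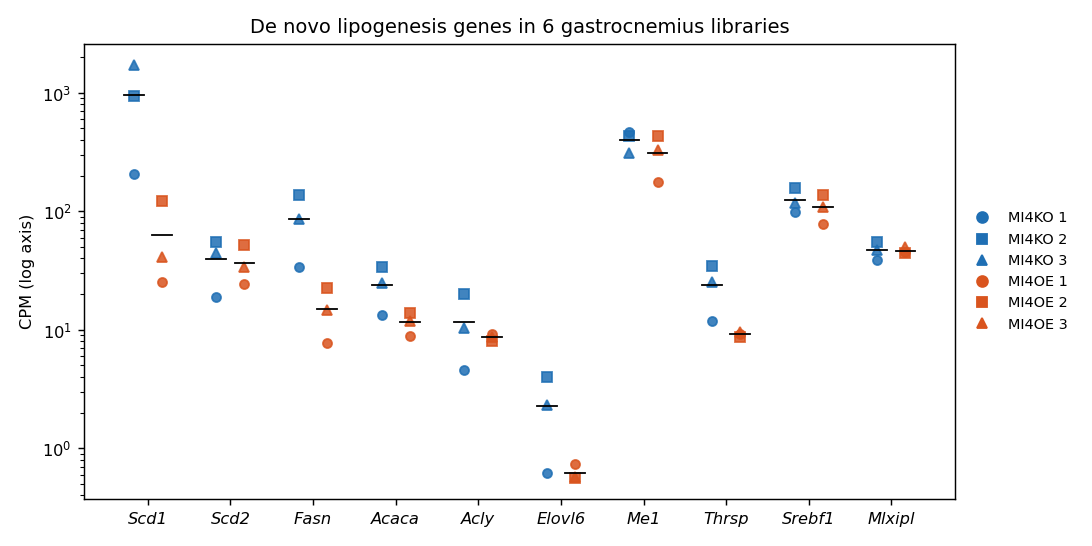
Level of each de novo lipogenesis gene in each library, as CPM on a log axis, with MI4KO in blue, MI4OE in orange, 1 marker shape per replicate number and a short black line at each group mean. Scd1 lies at 206 to 1727 CPM in MI4KO and 25.4 to 122 CPM in MI4OE, while Mlxipl lies at 38.8 to 54.7 and 44.4 to 50.2 CPM.

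Scd1, the desaturase that makes oleate and palmitoleate, had the widest separation. Its level was 206, 934 and 1727 CPM in MI4KO replicates 1, 2 and 3 and 25.4, 122 and 41.1 CPM in MI4OE replicates 1, 2 and 3. The groups did not overlap, and the lowest MI4KO library was 1.68 times the highest MI4OE library. Means were 956 ± 761 CPM and 63.0 ± 52.1 CPM (SD, n = 3 each), a ratio of 15.2, and the log2 fold change of MI4OE against MI4KO was -3.92 ± 0.89 (SE). Scd1 took 0.176% of all counts in MI4KO replicate 3 and ranked 203rd of 16006 detected genes by TPM, against 5238th of 15664 in MI4OE replicate 1. The 3 MI4KO libraries themselves spanned 8.39-fold, with replicate 1 the lowest, and leaving out MI4KO replicate 3 gave a log2 fold change of -3.19.

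Scd2, its paralogue, did not share the separation. It measured 18.9, 55.2 and 44.9 CPM in MI4KO against 24.4, 52.3 and 33.7 CPM in MI4OE, and MI4KO replicate 1 was the lowest of all 6 libraries. The log2 fold change was -0.11 ± 0.42 (SE). As a result the TPM ratio of Scd1 to Scd2 was 12.3, 19.1 and 43.5 in MI4KO and 1.18, 2.65 and 1.38 in MI4OE, without overlap. The counts of both genes carry decimals in the deposited table, the mark of reads that RSEM shared among transcripts, so a part of each may come from a related sequence.

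**Figure D2:**
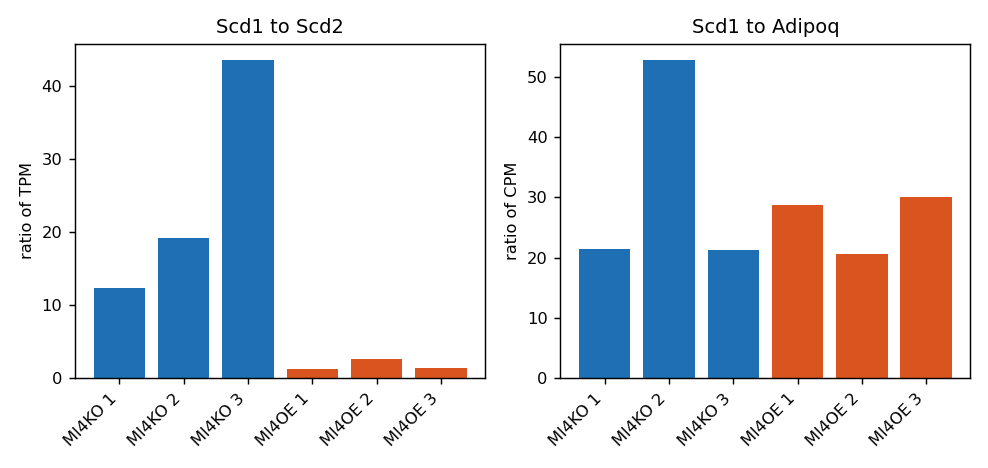
Ratio of Scd1 to Scd2 in TPM (left) and of Scd1 to Adipoq, an adipocyte hormone gene, in CPM (right), 1 bar per library with axes from 0, MI4KO in blue and MI4OE in orange. The first ratio lies at 12.3 to 43.5 in MI4KO and 1.18 to 2.65 in MI4OE, whereas the second lies at 21.2 to 52.9 and 20.6 to 30.0 and overlaps. Relative to Fabp4, Scd1 did not overlap.

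Among the enzymes of palmitate synthesis, Fasn followed Scd1 most closely. Fasn measured 34.1, 136 and 85.9 CPM in MI4KO against 7.67, 22.6 and 14.6 CPM in MI4OE. These values did not overlap, the means differed 5.71-fold and the log2 fold change was -2.51 ± 0.56 (SE). Acaca, which supplies malonyl-CoA, measured 13.2, 34.1 and 24.9 CPM in MI4KO against 8.90, 13.9 and 11.9 CPM in MI4OE, so the groups met at MI4KO replicate 1 and MI4OE replicate 2. Its log2 fold change was -1.05 ± 0.34 (SE). Acly, which supplies acetyl-CoA, spread over 4.54, 20.0 and 10.4 CPM in MI4KO and kept to 9.30, 7.97 and 8.70 CPM in MI4OE. MI4KO replicate 1 was again the lowest library and replicate 2 the highest, and the log2 fold change of -0.43 was smaller than its standard error of 0.46.

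Me1, which overlapped between groups, had the highest mean TPM of the 10 genes in MI4OE. It measured 466, 428 and 309 CPM in MI4KO against 176, 429 and 329.8 CPM in MI4OE, with a log2 fold change of -0.36 ± 0.34 (SE). In CPM, MI4KO replicate 1 was the highest library, whereas in TPM MI4KO replicate 2 was, at 246 TPM against 194 TPM. MI4OE replicate 1 was the lowest on both scales, and leaving out MI4OE replicate 1 gave -0.084 on the log2 scale. Elovl6, which turns palmitate into stearate, was scarce, with 0.614, 3.96 and 2.32 CPM in MI4KO against 0.738, 0.559 and 0.574 CPM in MI4OE. Only 15 to 100.04 and 13.07 to 16.46 expected counts stood behind these values. Its log2 fold change was -1.88 ± 0.63 (SE), MI4KO replicate 1 lay within the MI4OE range, and the size depended on MI4KO replicate 2, without which it was -1.25.

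Thrsp, also called Spot 14, is a nuclear protein that accompanies lipogenic gene expression. It measured 11.95, 34.5 and 25.3 CPM in MI4KO against 9.30, 8.77 and 9.67 CPM in MI4OE. The groups did not overlap in CPM but did in TPM, with 16.98 TPM in MI4KO replicate 1 against 17.56 TPM in MI4OE replicate 3. In CPM the means differed 2.59-fold, and the log2 fold change was -1.37 ± 0.35 (SE). Spread was 2.89-fold within MI4KO and 1.10-fold within MI4OE.

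For the transcription factors themselves the differences were smaller than their standard errors. Srebf1 measured 98.2, 157 and 117 CPM in MI4KO against 78.0, 139 and 109.6 CPM in MI4OE, with a log2 fold change of -0.19 ± 0.27 (SE). Mlxipl measured 38.8, 54.7 and 46.9 CPM in MI4KO against 45.4, 44.4 and 50.2 CPM in MI4OE, with a log2 fold change of -0.0047 ± 0.17 (SE). Both genes overlapped broadly between groups. Srebf1 and Mlxipl had 1 transcript each in the authors' set, so alternative starts of these genes could not be told apart, and mRNA says nothing of the processing of SREBP-1 protein.

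**Figure D3:**
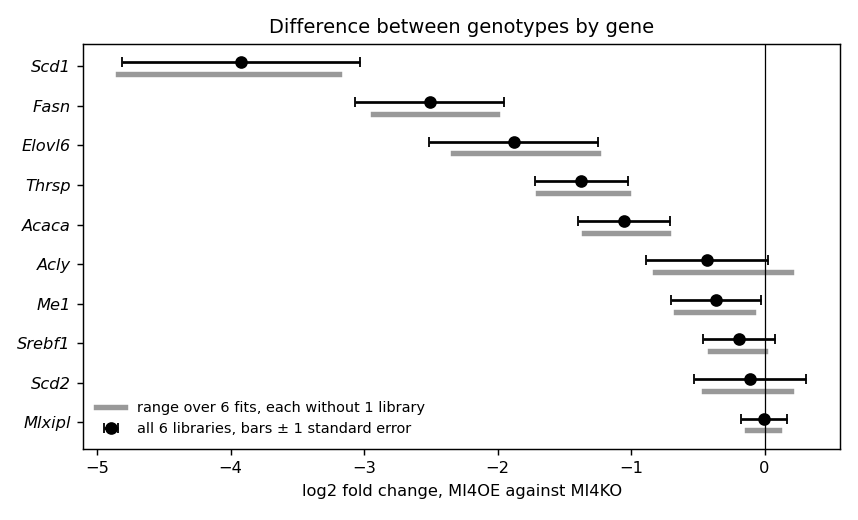
Log2 fold change of MI4OE against MI4KO for the 10 genes, as points with bars of 1 standard error from all 6 libraries, and as grey bars for the range over 6 fits that each left out 1 library. Scd1 runs from -4.85 to -3.19 and Fasn from -2.94 to -2.004 over those fits, while Scd2, Acly, Srebf1 and Mlxipl cross 0.

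By edgeR's quasi-likelihood test with Benjamini-Hochberg adjustment, 0 of the 10 genes had an adjusted p under 0.05, where 0.0237% of all genes tested did. At an unadjusted p under 0.05, reached by 7.58% of all genes tested in either direction, there were 5 genes, Scd1, Fasn, Acaca, Elovl6 and Thrsp. All 5 also met the study's criterion of 1.5-fold, lower in MI4OE, as did 2.28% of all genes. Scd1, Fasn and Thrsp had an adjusted p under 0.05 with edgeR's exact test, which called 0.853% of all genes tested, and with DESeq2, which called 0.877%. Groups did not overlap in CPM, with MI4KO higher, for 3 of the 10 genes and for 5.48% of all genes. Since the genes were chosen with this comparison known, nothing is read from these shares. The median log2 fold change of the 10 was -0.74, and it was -4.35e-05 over all genes tested.

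MI4KO replicate 1 was the lowest MI4KO library for 9 of the 10 genes, Me1 being the exception, and MI4KO replicate 2 was the highest for 8. Without MI4KO replicate 2, 6 of the 10 genes were lower in MI4OE and the median was -0.53. Summed brown adipocyte markers were 117 CPM in MI4KO replicate 2 and 18.4 to 38.7 CPM in the other libraries. Outside MI4KO replicate 2 most of this sum was Ppargc1a, at 17.5 to 27.5 CPM, whereas Ucp1 was at most 0.148 CPM. The part of these markers in the genotype differences was not tested. Without MI4KO replicate 1 all 10 were lower and the median was -1.09. Without MI4OE replicate 1, the library of highest Myh7, 8 of the 10 were lower and the median was -0.69, and the part of fibre type was not tested. As a description over 6 points, in which both genes share library, depth and tissue make-up, Pearson's r of log2(CPM + 1) was 0.96 between Scd1 and Fasn, 0.97 between Fasn and Acaca, 0.98 between Elovl6 and Thrsp, 0.92 between Acly and Mlxipl, and -0.09 between Acly and Me1.

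Of 12 adipocyte markers in the table, 11 passed the filter, of which 9 were lower in MI4OE by point estimate, with a median log2 fold change of -3.58. None was at 0 in all libraries. By the quasi-likelihood test 0 passed at an adjusted p under 0.05 and 8 at an unadjusted p under 0.05, all 8 lower in MI4OE, where 7.58% of all genes had such a p in either direction, while the exact test called 5 of them and DESeq2 2. Adipoq measured 9.58, 17.7 and 81.4 CPM in MI4KO against 0.886, 5.94 and 1.37 CPM in MI4OE. The adipocyte hormone was thus higher in each MI4KO library than in any MI4OE library. Plin1, which coats the fat droplets of adipocytes, measured 5.40, 20.4 and 37.0 CPM in MI4KO against 0.640, 3.57 and 1.06 CPM in MI4OE. Cfd (adipsin) measured 9.46, 62.0 and 300.1 CPM in MI4KO against 3.39, 14.4 and 4.15 CPM in MI4OE. Fabp4, which endothelial cells also express, measured 128, 212 and 398 CPM in MI4KO against 259.8, 104 and 104 CPM in MI4OE.

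The summed level of the adipocyte markers was 192 to 1043 CPM in MI4KO and 123 to 288 CPM in MI4OE, so the sums overlapped. Without Fabp4, which made up more of the sum than all other markers together in each library except MI4KO replicate 3, they were 64.5, 194 and 645 CPM against 27.9, 47.75 and 19.6 CPM, with no overlap. Of the 12 markers 6, Adipoq, Lep, Retn, Plin1, Cidec and Acvr1c, shared with Scd1 an order in which MI4OE replicate 1 was lowest, then MI4OE replicates 3 and 2, and the MI4KO libraries above. This order was noticed after the values were seen, and the share of all genes with the same order was not counted. Without overlap and higher in MI4KO, whatever the order within groups, were 5.48% of all genes tested. Acvr1c did not pass the filter and is not among those. Adig and Aqp7 went the other way and were highest in MI4OE replicate 1, at 9.94 and 9.54 CPM. Without MI4KO replicate 3 the log2 fold change of Adipoq was -2.30 and that of Plin1 -2.85. Per CPM of Adipoq, Scd1 had 21.5, 52.9 and 21.2 CPM in MI4KO and 28.7, 20.6 and 30.0 CPM in MI4OE, where the groups overlapped. Adipoq is a single marker and had only 18 and 31 counts in MI4OE replicates 1 and 3. Relative to Fabp4, or to the markers summed without Fabp4, Scd1 did not overlap between groups. Fasn per CPM of Adipoq was 3.56, 7.71 and 1.06 in MI4KO and 8.67, 3.80 and 10.7 in MI4OE. What lies behind the marker differences, such as the number of adipocytes or the RNA per cell, cannot be told in whole muscle. The part of adipocyte RNA in the lipogenic differences was not tested. Hepatocyte markers, with 6.02, 8.52 and 64.3 CPM in MI4KO against 7.97, 4.09 and 2.74 CPM in MI4OE, stood in the same order as Scd1 over the 3 MI4KO libraries, and their part was not tested either. Alb, the defining hepatocyte gene, was at 29.5 CPM in MI4KO replicate 3 and at 0 to 2.73 CPM elsewhere.

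**Figure D4:**
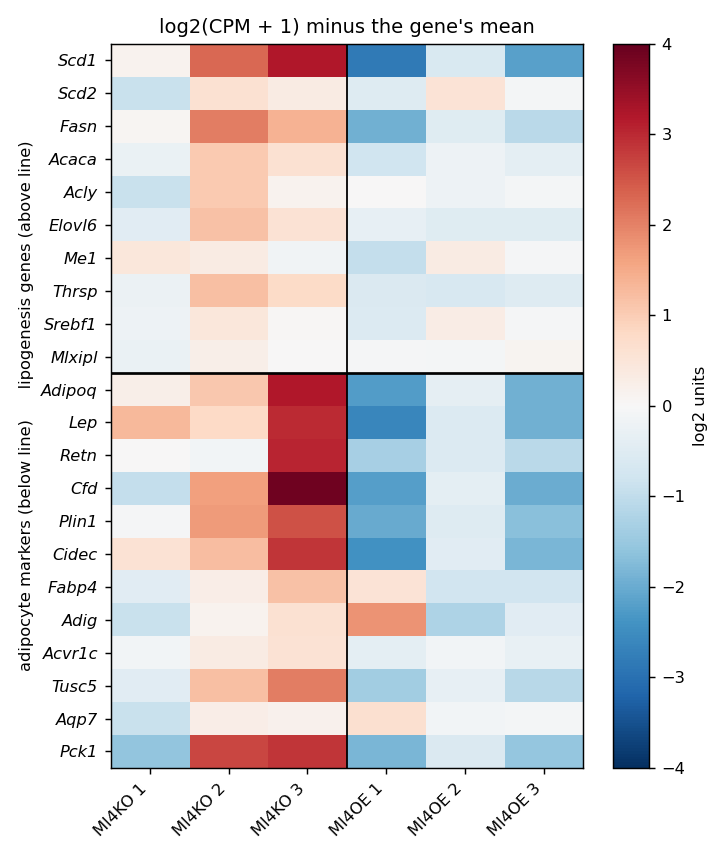
Heat map of log2(CPM + 1) minus each gene's mean over the 6 libraries, with lipogenesis genes above the line and adipocyte markers below it. Scd1, Adipoq, Lep, Plin1 and Cidec are highest in MI4KO replicate 3 and lowest in MI4OE replicate 1, whereas Mlxipl and Srebf1 vary little by comparison.

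The 9 Schwann cell markers, from cells that also make lipid for myelin, were all higher in MI4OE by point estimate, with a median log2 fold change of 1.01, and the lowest adjusted p by edgeR was 0.70. Their sum was 30.9 to 137 CPM in MI4KO and 87.1 to 252 CPM in MI4OE. The 5 endothelial markers had a median of 1.002, with 4 at an unadjusted p under 0.05, beside 7.58% of all genes, and 0 past adjustment by edgeR, and summed to 76.0 to 125 CPM in MI4KO and 146 to 289 CPM in MI4OE. Macrophage markers had a median of -0.035 over 5 genes, brown adipocyte markers 0.023 over the 3 tested of 5, which leaves out Ucp1 and Cidea, and of 5 epithelial markers 4 were at 0 counts in every library. At this depth a count of 0 allows up to 0.148 CPM. The part of these cells in the lipogenic differences was not tested.

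Genes with a course most like that of a member were sought among 11287 other genes of at least 1 CPM on average, by Pearson's r of log2(CPM + 1) over the 6 libraries. For Scd1 they were Plin1 (r = 0.998), Hist1h2bj (r = 0.993) and Cidec (r = 0.982), and for Fasn they were Ippk, Zfp35 and Prkar2b (r from 0.984 to 0.991). Those of Srebf1 were Nedd1, Ncoa2 and Phf2 (r from 0.994 to 0.996), and those of Mlxipl were Mid2, Trim37 and Bcl2l2 (r from 0.986 to 0.989). With so many genes and 6 libraries such values are a description.

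Companion genes of the pathway were taken as whole lists, and 0 genes of the 5 lists that follow passed at an adjusted p under 0.05 by edgeR's quasi-likelihood test. Counts at an unadjusted p under 0.05 in these lists stand beside 7.58% of all genes, and counts without overlap and with MI4KO higher beside 5.48%. Among 14 genes that supply acetyl-CoA and NADPH, 10 were lower and 4 higher in MI4OE by point estimate, with a median log2 fold change of -0.16. At an unadjusted p under 0.05 there were 3, Tkt, Slc25a1 and Pgd, each without overlap between groups in CPM, although Slc25a1 and Pgd overlapped in TPM. Tkt, transketolase of the pentose phosphate pathway, measured 17.5, 39.9 and 20.9 CPM in MI4KO against 9.20, 12.8 and 9.85 CPM in MI4OE, with a log2 fold change of -1.29 ± 0.32 (SE; edgeR adjusted p 0.495.) Tkt had an adjusted p of 0.0316 by DESeq2 and 0.0386 by edgeR's exact test, under 0.05 in both, the sole gene of the list to do so, and its log2 fold change without MI4KO replicate 2 was -0.86. Slc25a1, the mitochondrial citrate carrier, measured 3.85, 8.64 and 11.2 CPM in MI4KO against 3.64, 3.78 and 2.38 CPM in MI4OE (edgeR adjusted p 0.546). Pgd and G6pdx, the NADPH-forming dehydrogenases of the same pathway, had log2 fold changes of -0.47 (edgeR adjusted p 0.639) and -1.03 (edgeR adjusted p 0.689). G6pdx was highest in MI4KO replicate 3, at 9.50 CPM against 2.13 to 5.35 CPM elsewhere, and had -0.44 without it, and Pgd had -0.29 without it.

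Acaca's muscle counterpart Acacb, whose malonyl-CoA restrains fatty acid oxidation, was more abundant, with 323, 359 and 264 CPM in MI4KO against 233, 346 and 301 CPM in MI4OE. The TPM ratio of Acaca to Acacb was 0.0384, 0.0890 and 0.0885 in MI4KO and between 0.0358 and 0.0377 in MI4OE. Over the 11 genes of the carboxylase list, which held Acacb, Mid1ip1, Mlycd, the kinase gene Stk11 and 7 subunits of AMPK, the median log2 fold change was 0.037, 0 had an unadjusted p under 0.05 by the quasi-likelihood test, and 0 passed by the exact test or DESeq2. Mid1ip1, a relative of Thrsp that binds the carboxylases, had a log2 fold change of 0.47 (edgeR adjusted p 0.730), opposite in sign to Thrsp, and 0.29 without MI4KO replicate 1. The other 3 with the smallest p were Mlycd, malonyl-CoA decarboxylase, at 0.31, and the AMPK subunits Prkaa2 at -0.42 and Prkab2 at -0.53 on the log2 scale. Leaving out MI4OE replicate 1 gave 0.088 for Mlycd, -0.13 for Prkaa2 and -0.14 for Prkab2.

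Among elongation and desaturation genes beyond the members, 13 of 17 passed the filter, and their log2 fold changes had a median of -0.33, with 9 lower and 4 higher by point estimate. An unadjusted p under 0.05 by the quasi-likelihood test was reached by 2, Ptplb (log2 fold change -1.34, adjusted p 0.559) and Ptpla (-0.49, adjusted p 0.639), dehydratases of the elongation cycle, and 0 passed by the exact test or DESeq2. Hsd17b12, a reductase of that cycle, had -0.53 and Fads3 -1.19. Fads3 was at 20.9 CPM in MI4KO replicate 3 and 3.93 to 4.87 CPM elsewhere. Leaving out that library gave -0.035 for Fads3 and -0.88 for Ptplb. Fads1 and Fads2, which desaturate polyunsaturated fatty acids, had log2 fold changes of 0.035 and 0.092. These values also rested on MI4KO replicate 3, the highest library for both at 9.17 and 1.48 CPM. The other MI4KO libraries lay below every MI4OE library for both genes.

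For the 22 genes of the SREBP, ChREBP and LXR axis the median was -0.048, with 14 lower and 8 higher. Cebpa, an adipogenic factor that is also high in fat and liver, measured 7.78, 20.5 and 42.7 CPM in MI4KO against 3.54, 5.07 and 3.80 CPM in MI4OE, with a log2 fold change of -2.51 ± 0.56 (SE; edgeR adjusted p 0.433.) Its adjusted p was 6.2e-04 by DESeq2 and 0.0044 by edgeR's exact test, and it was the sole gene of the list under 0.05 in both. Without MI4KO replicate 3 the log2 fold change of Cebpa was -1.78. Pparg, the adipocyte master regulator, had a log2 fold change of -1.30 (edgeR adjusted p 0.626), Insig2, which holds SREBP in the endoplasmic reticulum, -0.46 (0.614 by the same test), and Ppargc1b, a coactivator of SREBP, 0.50 (0.748 by the same test). Ppargc1b rested on MI4OE replicate 1, at 14.2 CPM against 6.06 to 7.95 CPM elsewhere, and had 0.14 without it. An unadjusted p under 0.05 was reached by 3, Cebpa, Insig2 and Pparg. Of these, Pparg overlapped between groups, at 1.76, 6.26 and 7.76 CPM in MI4KO against 2.80, 1.68 and 1.94 CPM in MI4OE.

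Cholesterol synthesis and uptake, the programme of SREBP-2, came to a median of -0.14 on the log2 scale for the 22 tested of its 23 genes, 16 lower and 6 higher. Tm7sf2, a sterol reductase, was the 1 gene with an unadjusted p under 0.05 (log2 fold change -0.71, edgeR adjusted p 0.603), and 0 passed by the exact test or DESeq2. Hsd17b7, Acat2 and Mvd came next at -0.84, -0.44 and 0.50, and leaving out MI4OE replicate 1 gave -0.50 for Hsd17b7 and 0.16 for Mvd.

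**Figure D5:**
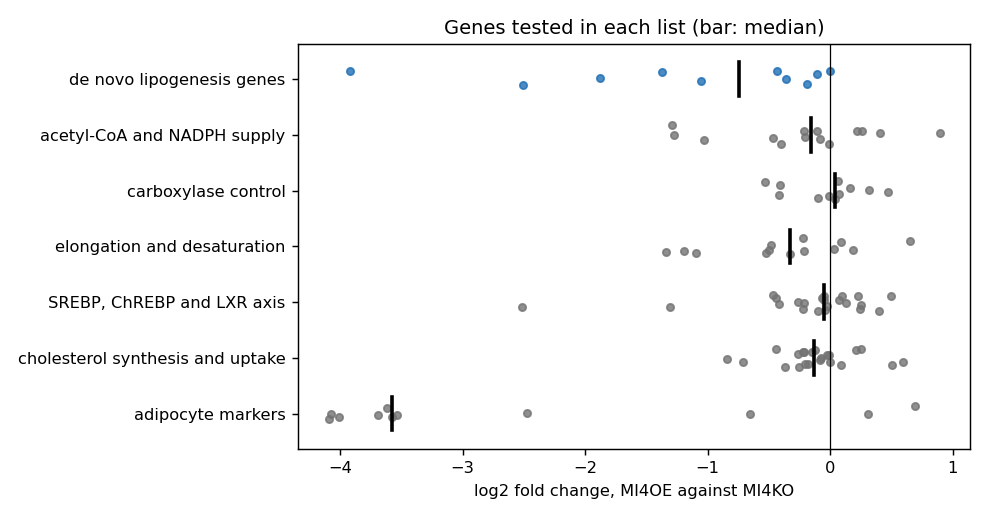
Log2 fold change of MI4OE against MI4KO for each gene tested, 1 point per gene, in the 10 lipogenesis genes (blue) and 6 other lists (grey), with a black bar at each median and vertical jitter only to separate points. The medians are -0.74 for the lipogenesis genes, between -0.33 and 0.037 for the 5 pathway lists and -3.58 for adipocyte markers.

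At the level of transcripts, 8 of the 10 genes had 1 transcript in the authors' set and 2 had 2. All Me1 counts were on NM_008615 in each library. Acly counts were divided between NM_134037 and NM_001199296, of 4397 and 4427 bases, and the share on NM_134037 was 0%, 83.1% and 100% in MI4KO and 24.1%, 100% and 65.4% in MI4OE. The mean over the 6 libraries was 62.1% ± 41.5 (SD, n = 6), and the shares overlapped fully between groups.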

How the data were processed

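Single reads of stranded mRNA libraries from gastrocnemius were mapped by the study with Bowtie2 2.1.0 to a UCSC transcript set and quantified with RSEM 1.2.15. The genome build is not given in the sources used here. The deposited expected counts are what RSEM estimated for each gene or transcript, with no scaling. The deposited TPM values were adjusted by the authors for transcript length. The authors' tables of fold changes, p-values and false discovery rates were not used.

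Groups came from the genotype label, and replicates were numbered by accession. Rounded counts entered edgeR 4.0.16 under R 4.3.3 (filterByExpr with a minimum count of 10 and a minimum total of 15, TMM factors, glmQLFit and glmQLFTest), adjusted by Benjamini-Hochberg over 12660 genes. CPM used TMM-scaled library sizes. The fit was tested on simulated data. Standard errors are the log2 fold change divided by the square root of the F statistic. Other settings were 2 other filters (none, or a mean of 1 CPM), RLE or total-count scaling, DESeq2 1.42.0, edgeR's exact test, limma 3.58.1 on log2(TPM + 1) or log2(TPM + 0.1), and fits leaving out 1 library.

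The members and lists were chosen with earlier results of these data known. Named genes were the members, Irf4, Gt(ROSA)26Sor, those of each list that passed or else the 4 with the smallest p, Adipoq, Fabp4, Cfd and Plin1, and for Scd1, Fasn, Srebf1 and Mlxipl the 3 genes of highest Pearson's r. Acacb, Fads1, Fads2, Alb, Myh7, Myh2, Mb, Ucp1, Cidea, Adig and Aqp7, the promoters shown, the Acly transcript share and the marker order given for Scd1 were picked after their values were seen. Floors of 3 counts cover counting error only.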

Additional observations from a re-analysis of the deposited data

How the results depend on the processing

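The direction of Scd1, Fasn, Acaca, Elovl6, Me1 and Thrsp was the same in 15 of 15 alternatives, that of Acly and Srebf1 in 14, of Scd2 in 11 and of Mlxipl in 9. The median of the 10 genes ran from -1.09 without MI4KO replicate 1 to -0.53 without MI4KO replicate 2, and was -0.41 for limma using log2(TPM + 1). Elovl6 had -0.45 for that fit and -1.17 with 0.1 added to the TPM.

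The choice of test moved the calls at an adjusted p under 0.05. Genes called numbered 111 with DESeq2 and 108 with the exact test, against 3, and 1 to 4 leaving out 1 library, the lowest without MI4KO replicate 1. The exact test was first run with dispersions estimated under the design matrix, which called 112 genes. It was switched to the group-based dispersion after that count was seen, and both are kept here, the first as an alternative chosen after seeing the data. Members called were 3 with DESeq2 and 3 with either form of the exact test, against 0. DESeq2 and each form of the exact test called 1 gene of the acetyl-CoA and NADPH supply list and 1 of the SREBP, ChREBP and LXR axis, against 0. Adipocyte markers called were 2 with DESeq2, 5 with the exact test and 6 with its design-based form, against 0. At 1.5-fold and an unadjusted p under 0.05, members numbered 3 with each limma fit and 3 to 6 leaving out 1 library, against 5, the lowest without MI4KO replicate 2. All genes numbered 468 for limma using log2(TPM + 1) and 590 to 1314 leaving out 1 library, against 841, the highest without MI4OE replicate 2. The cause was not tested. The 26 other named genes of the lists held their direction in each alternative, and 7 changed their call in at least 1. No paired analysis was possible because accession order alone numbers the replicates. With 3 libraries a group, the spread within MI4KO limits what can be said of Scd1, Fasn and Elovl6.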
